A study of Mus musculus with 18 samples.

Results

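The AP-1 and ATF transcription factors measured here were 10 of the 24485 genes listed for each library. They were chosen by gene symbol as Jun, Junb and Jund, the Jun family, Fos, Fosb and Fosl2, the Fos family, and Atf3, Batf, Batf3 and Jdp2, which are relatives of both families. All 10 symbols were found in all 18 libraries. The libraries came from bone marrow-derived macrophages (BMDMs) of Il10-/- mice on the C57BL/6J background, which cannot make interleukin 10 (IL-10), and every group carried this deletion. Marrow of 3 male mice, 12 weeks old, was grown into macrophages for 6 days in medium conditioned by L929 cells, a source of the growth factor M-CSF, and cultures of each mouse entered all 6 groups. Unstimulated cells received no agent. JQ1 cells received (+)-JQ1 at 500 nM, an inhibitor of the BET bromodomain proteins that read acetylated histones, and IL10 cells received IL-10 at 10 ng/mL. LPS cells received lipopolysaccharide (LPS), a bacterial cell wall component, at 50 ng/mL for 4 hours. In the LPS + JQ1 and LPS + IL-10 groups the agent was present for 12 hours before LPS, and JQ1 and IL10 cells received buffer in place of LPS. Cells without pretreatment are untreated in the labels, whereas the study's methods mention vehicle ahead of LPS. The comparisons ask how the LPS response of these genes changes under BET inhibition or IL-10.

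AP-1 is a dimer of basic leucine zipper (bZIP) proteins. Jun proteins pair with each other or with a Fos protein, whereas Fos proteins need a Jun partner, so that the mix of subunits in a cell sets which dimers can form. Fos and Jun are classical immediate early genes, whose transcription rises within minutes of a stimulus and falls again, and ATF3, BATF and JDP2 pair with Jun proteins but lack the strong activation domain of FOS. In macrophages AP-1 and NF-kB together drive the genes that answer bacterial products.

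All 8 macrophage markers examined were present in every library, with a summed abundance of 14317 to 29066 TPM (a level scaled to transcript length and to the total of the library). Lyz2, the lysozyme gene, made up most of this sum and set its course, with 17677 to 19119 TPM in the unstimulated group, 24471 to 24853 TPM with JQ1, 17702 to 18819 TPM with IL-10, 9722 to 10567 TPM with LPS, 15137 to 17501 TPM with LPS + JQ1 and 10088 to 11081 TPM with LPS + IL-10. The other 7 markers added up to 5294 to 5651 TPM in the unstimulated group, 4204 to 4596 TPM with JQ1, 5395 to 5967 TPM with IL-10, 4595 to 5250 TPM with LPS, 4441 to 5063 TPM with LPS + JQ1 and 5248 to 5949 TPM with LPS + IL-10. The markers did not move together. In all 3 JQ1 libraries 5 of 8 (Adgre1, Csf1r, Itgam, Cd68 and Fcgr1) lay below the unstimulated libraries and 3 (Lyz2, Cd14 and Mertk) above them, whereas with LPS Adgre1, Cd14 and Fcgr1 lay above and the other 5 below. With LPS + JQ1 against LPS 4 lay below (Itgam, Cd68, Mertk and Fcgr1) and Lyz2 above. With IL-10 4 lay above and 0 below, both without and with LPS. The part of these shifts in the results below was not tested, and in bulk RNA fewer cells of a type cannot be told apart from less RNA per cell. Marker lists of T cells, B cells, neutrophils, dendritic cells, mast cells or basophils, fibroblasts and erythroid cells each added up to at most 11.3 TPM in any library, and the neutrophil gene Ly6g was under 0.05 TPM in all of them. Reads assigned to the deleted Il10 gene ran from 16 to 196 expected counts per library, and no wild-type cells were analysed here. Libraries held between 6781952 expected counts, in replicate 2 of the unstimulated cells, and 28289498. Replicate 3 stood apart in the LPS and LPS + IL-10 groups, where the chi-square of its counts against either other replicate was 24.2 to 28.4 per degree of freedom, against 3.98 to 10.5 for every other pair of replicates.

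In the mouse build mm9, Fos (chr12:86814840-86818223, plus strand), Jdp2 (chr12:86940366-86980827, plus strand) and Batf (chr12:87027619-87050037, plus strand) lie in a row. The gap between Fos and Jdp2 is 122.1 kb and the gap between Jdp2 and Batf is 46.79 kb, with 0 protein-coding genes annotated inside either gap. Batf3 (chr1:192922293-192932822, plus strand) and Atf3 (chr1:192994175-193007219, minus strand) are also neighbours, 61.35 kb apart with 1 protein-coding gene between them. Jun (chr4:94715725-94718913, minus strand) overlaps the annotated gene BC042782 on the other strand, and Jund (chr8:73221638-73224515, plus strand) overlaps Gm11175 on the other strand. The default settings of RSEM ignore strand, so reads of these overlapping genes cannot be told apart. Fosl2 (chr5:32438845-32460204, plus strand), Fosb (chr7:19888070-19895394, minus strand) and Junb (chr8:87500811-87502617, minus strand, 1 exon) overlap no other annotated gene.

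The sequences before the start sites of Fos, Jun and Atf3 are printed because Fos and Jun went opposite ways with JQ1 and Atf3 had the highest level of the family in unstimulated cells. Each is the 250 bases before the start site of the RefSeq annotation of build GRCm38.p6, and each was found by exact match once on its chromosome of build mm9, at chr12:86814590-86814839 (plus strand), chr4:94718914-94719163 (minus strand) and chr1:193007213-193007462 (minus strand). Capitals mark the motifs found, which in Fos are an NF-kB site and TATAAA, and in Jun and Atf3 the letters TNACNTCA, a loose form of the cAMP response element.
Fos: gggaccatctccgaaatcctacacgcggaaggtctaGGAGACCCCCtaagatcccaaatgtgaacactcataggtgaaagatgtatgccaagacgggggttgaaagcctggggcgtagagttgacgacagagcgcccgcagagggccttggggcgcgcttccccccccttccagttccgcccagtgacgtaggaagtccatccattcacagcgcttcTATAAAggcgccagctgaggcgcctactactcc
Jun: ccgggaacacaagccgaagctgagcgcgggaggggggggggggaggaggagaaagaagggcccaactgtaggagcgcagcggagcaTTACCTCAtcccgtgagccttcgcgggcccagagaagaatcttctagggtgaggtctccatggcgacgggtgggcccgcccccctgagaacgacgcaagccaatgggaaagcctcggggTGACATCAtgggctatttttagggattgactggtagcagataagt
Atf3: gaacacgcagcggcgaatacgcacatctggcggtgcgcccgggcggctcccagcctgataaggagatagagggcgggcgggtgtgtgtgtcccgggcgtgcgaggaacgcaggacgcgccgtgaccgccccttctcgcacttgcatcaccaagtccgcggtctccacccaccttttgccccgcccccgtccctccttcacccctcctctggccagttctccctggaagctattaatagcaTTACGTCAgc

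Motifs were searched on both strands of the RefSeq windows, from 250 bases before to 50 after each start site. The 10 members had 12 such windows. The AP-1 site TGANTCA was in the windows of 0 members, against 7.81% of all 32851 windows, the full cAMP response element TGACGTCA was in those of 0 members (1.79% of all) and the CArG box in those of 0 members (1.63% of all). The looser TNACNTCA, which includes TGACGTCA and was added after the sequences had been seen, was in the windows of Jun, Jund and Atf3, 3 members, against 16.4% of all windows. Jun held it at 2 places, as TTACCTCA and TGACATCA, and Atf3 as TTACGTCA. An NF-kB site was found for 4 members, Fos, Fosb, Fosl2 and Jdp2 (8.46% of all windows), and TATAAA for 2, Fos and Junb (13.6% of all). These matches describe the letters of the windows and say nothing of binding in these cells. Sites that differ from the letters searched, or that lie outside the windows, were not counted.

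**Figure D1:**
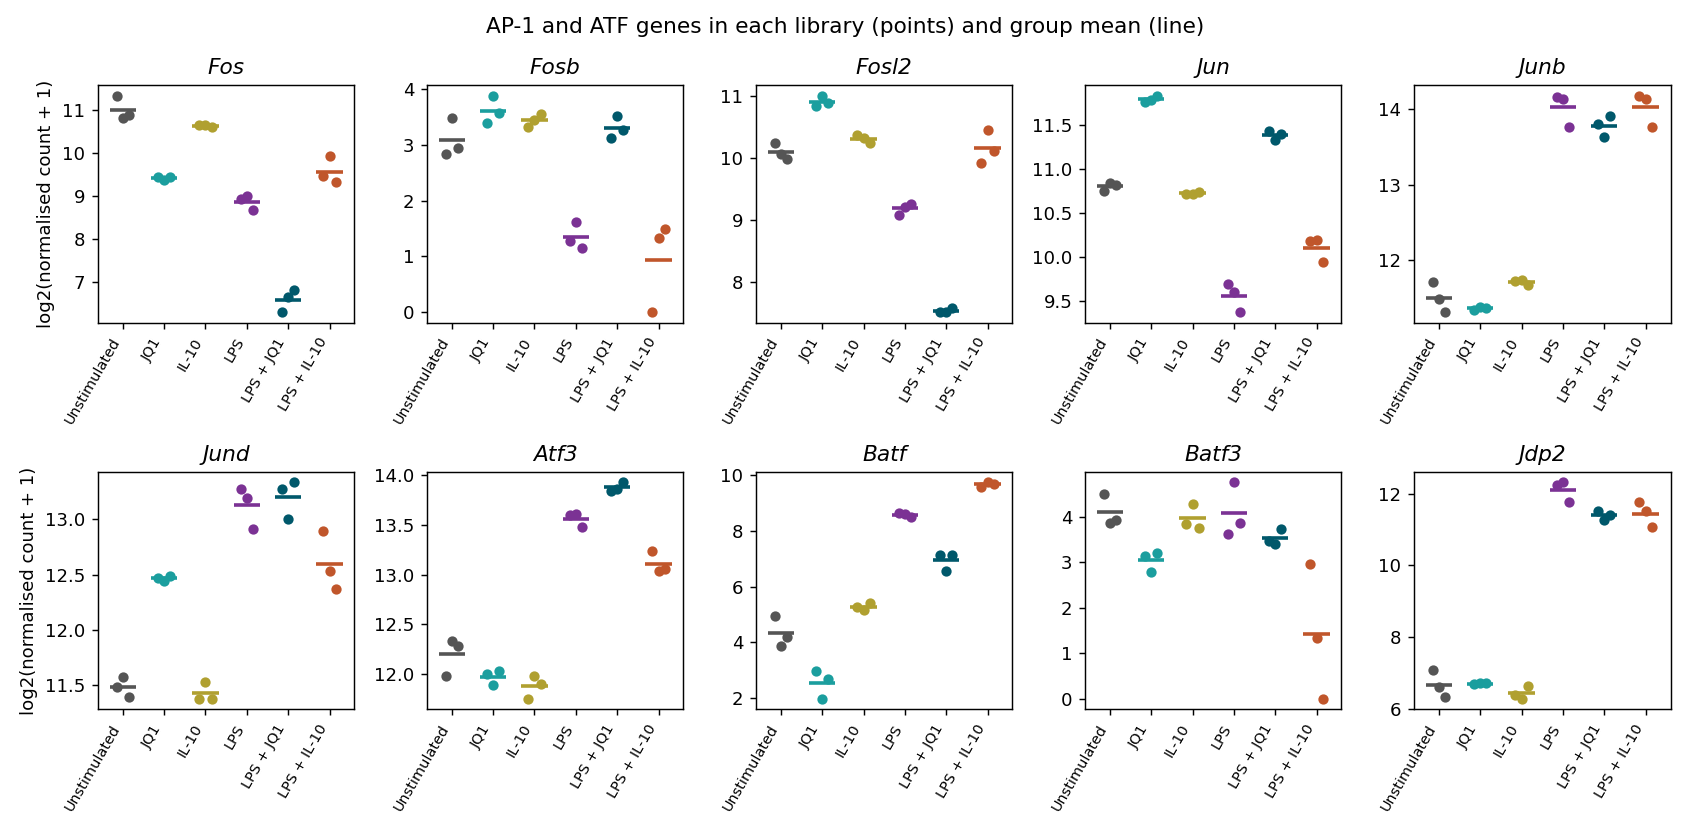
Level of each of the 10 genes, as log2(normalised count + 1), in the 3 libraries of each of the 6 groups (points, in the order of replicates 1 to 3), with the mean of the log values as a line. Jun is highest with JQ1 and with LPS + JQ1, the groups in which Fos lies below the matching group without JQ1, and Batf is highest with LPS + IL-10. The vertical axes differ between genes. Fosb and Batf3 rest on few reads, as does Batf in unstimulated and JQ1 cells.

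Levels are given first as counts normalised for library size, which compare libraries for 1 gene, and as TPM where genes are compared with each other. Jun encodes the founding member of AP-1. For Jun, the unstimulated libraries had 1726, 1833 and 1798 normalised counts, the JQ1 libraries 3466, 3532 and 3655 and the IL-10 libraries 1687, 1683 and 1711. Jun in the LPS libraries was at 823, 778 and 662, in those of LPS + JQ1 at 2769.7, 2583 and 2692 and in those of LPS + IL-10 at 1158, 1166 and 985. The ranges of all 6 groups were separate, in the order JQ1, LPS + JQ1, unstimulated, IL-10, LPS + IL-10 and LPS. On the TPM scale the unstimulated (79.91 to 84.55) and IL-10 ranges (77.12 to 83.82) overlapped.

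Junb encodes a Jun protein with weaker activation than JUN itself. For Junb, the unstimulated libraries had 3353, 2859.9 and 2539 normalised counts, the JQ1 libraries 2586, 2659.6 and 2623 and the IL-10 libraries 3359, 3413 and 3264. Junb in the LPS libraries was at 18345, 18069 and 13914, in those of LPS + JQ1 at 14259.5, 12694 and 15319.5 and in those of LPS + IL-10 at 18533, 17926 and 13870.4. Replicate 3 of the LPS group and of the LPS + IL-10 group, which stood apart above, were the lowest of their groups. The LPS groups lay above all others and overlapped each other, and the groups without LPS formed a second set in which neighbours overlapped. On the TPM scale this second set was separate, with IL-10 at 284.77 to 292.55, unstimulated at 216.51 to 282.77 and JQ1 at 184.71 to 193. Jund encodes the Jun protein that many resting cells contain. For Jund, the unstimulated libraries had 2847, 3046 and 2689 normalised counts, the JQ1 libraries 5655, 5554 and 5740.4 and the IL-10 libraries 2653, 2942 and 2654. Jund in the LPS libraries was at 9896, 9358 and 7731, in those of LPS + JQ1 at 9884, 8234 and 10329 and in those of LPS + IL-10 at 7622, 5924 and 5275. The LPS and LPS + JQ1 ranges overlapped, and so did those of LPS + IL-10 and JQ1, while unstimulated and IL10 cells were lowest. These overlaps depended on scaling. On the TPM scale LPS (248.88 to 275.48) lay below LPS + JQ1 (315.87 to 379.81), and LPS + IL-10 (180.71 to 227.47) lay below JQ1 (236.17 to 259.69).

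Fos encodes the partner that gives AP-1 its strongest activation. For Fos, the unstimulated libraries had 2572, 1806 and 1876 normalised counts, the JQ1 libraries 695, 657 and 691 and the IL-10 libraries 1599, 1594 and 1549. Fos in the LPS libraries was at 486, 508 and 404, in those of LPS + JQ1 at 77.3, 97.9 and 111 and in those of LPS + IL-10 at 698, 967 and 637. Unstimulated cells were highest and LPS + JQ1 cells lowest, and of the neighbours in this order LPS + IL-10 and JQ1 overlapped. Replicate 1 of the unstimulated cells stood above the other two of that group. Fosl2 encodes FRA-2, a Fos protein without the activation domain of FOS. For Fosl2, the unstimulated libraries had 1206, 1071 and 1017 normalised counts, the JQ1 libraries 1841, 2057 and 1889 and the IL-10 libraries 1323, 1279 and 1214. Fosl2 in the LPS libraries was at 543, 590.4 and 615, in those of LPS + JQ1 at 182, 182 and 191 and in those of LPS + IL-10 at 969, 1400.0 and 1105. Fosl2 was highest with JQ1 alone and lowest with LPS + JQ1. In between, the LPS + IL-10 range overlapped those of IL-10 and of unstimulated cells. On the TPM scale, however, the LPS + IL-10 libraries (13.69 to 21.5) lay below the unstimulated (24.86 to 29.45) and IL-10 libraries (30.93 to 33.26). Fosb encodes another Fos protein and was close to the limit of detection. The expected counts behind it, with fractions of reads rounded, were 8, 6 and 10 in the unstimulated libraries, 11, 14 and 12 in the JQ1 libraries, 23, 13 and 13 in the IL-10 libraries, 1, 2 and 1 in the LPS libraries, 7, 10 and 7 in those of LPS + JQ1 and 0, 1 and 2 in those of LPS + IL-10. The LPS and LPS + IL-10 libraries thus had 2 reads of Fosb or fewer each, below the floor of 3 counts set for a library.

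Atf3 encodes a stress-induced factor that mostly represses when it acts alone. For Atf3, the unstimulated libraries had 4041, 5170.2 and 4969.9 normalised counts, the JQ1 libraries 4111, 3805 and 4189 and the IL-10 libraries 3457, 4036 and 3819. Atf3 in the LPS libraries was at 12419, 12452 and 11392, in those of LPS + JQ1 at 14614, 14888 and 15526 and in those of LPS + IL-10 at 9638, 8403 and 8522. The LPS + JQ1 libraries lay above the LPS libraries, these above the LPS + IL-10 libraries and these above all libraries without LPS. Jdp2 encodes a repressor that dimerises with Jun proteins. For Jdp2, the unstimulated libraries had 134, 96.4 and 79.8 normalised counts, the JQ1 libraries 102, 104 and 103 and the IL-10 libraries 82.9, 76.8 and 98.0. Jdp2 in the LPS libraries was at 4857, 5077 and 3508, in those of LPS + JQ1 at 2943, 2446 and 2718 and in those of LPS + IL-10 at 3458, 2899 and 2144. LPS cells were highest, LPS + IL-10 and LPS + JQ1 cells overlapped below them, and the groups without LPS were far lower.

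Batf encodes a factor with little more than a bZIP domain that pairs with Jun proteins and works with IRF4 and IRF8 at composite DNA elements. For Batf, the unstimulated libraries had 30.1, 13.5 and 17.4 normalised counts, the JQ1 libraries 6.92, 2.96 and 5.49 and the IL-10 libraries 37.7, 34.6 and 41.5. Batf in the LPS libraries was at 400.1, 391 and 359, in those of LPS + JQ1 at 139, 92.7 and 140.3 and in those of LPS + IL-10 at 761, 851 and 824. No neighbouring groups overlapped, in the order LPS + IL-10, LPS, LPS + JQ1, IL-10, unstimulated and JQ1. Batf3 encodes a relative that conventional dendritic cells of the cross-presenting type depend on. Its expected counts, rounded, were 28, 8 and 21 in the unstimulated libraries, 9, 6 and 9 in the JQ1 libraries, 34, 24 and 15 in the IL-10 libraries, 8, 25 and 11 in the LPS libraries, 9, 9 and 10 in those of LPS + JQ1 and 5, 1 and 0 in those of LPS + IL-10. Batf3 was therefore measured on at most 34 reads in any library, and replicate 3 of LPS + IL-10 had 0, which allows up to 3 counts. The dendritic cell markers examined added up to 0.11 to 2.82 TPM per library.

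After 4 hours of LPS the family was split. Junb, Jund, Atf3, Batf and Jdp2 were higher than in unstimulated cells and Fos, Fosb, Fosl2 and Jun were lower. Thus 5 of 10 members rose, against 31.6% of all 14965 genes tested, 4 fell, against 32.9%, and 1 did not pass the test, with 64.5% of all genes called in either direction. The largest rise was that of Jdp2, 43.2-fold (log2 fold change 5.43, SE 0.19, adjusted p = 2.08e-169), followed by Batf, 17.9-fold (log2 fold change 4.16, SE 0.22, adjusted p = 1.42e-80). Junb rose 5.75-fold (log2 fold change 2.52, SE 0.13, adjusted p = 6.27e-88), and the other members that rose were smaller in fold but high in level. Jund rose 3.15-fold (log2 fold change 1.65, SE 0.12, adjusted p = 1.31e-39) and Atf3 2.56-fold (log2 fold change 1.36, SE 0.091, adjusted p = 8.86e-50). Fos and Jun, the members known for their early and short response, were at 22.3% and 42.2% of their unstimulated level at this time. The values were log2 fold change -2.16, SE 0.16, adjusted p = 2.20e-42 for Fos and log2 fold change -1.24, SE 0.078, adjusted p = 3.88e-56 for Jun, and Fosl2 was at 53.1% (log2 fold change -0.91, SE 0.11, adjusted p = 6.77e-15). Fosb had log2 fold change -2.18, SE 0.85, adjusted p = 0.0169, on the few reads given above, and the call was lost with any 1 mouse left out (adjusted p = 0.07 to 0.0972) and without LPS replicate 3 (0.0542). Batf3 had a log2 fold change of 0.048 (95% interval -0.84 to 0.94). When libraries were scaled to their total counts instead, the median log2 fold change of all genes that averaged 10 or more normalised counts moved from -0.03 to -0.96, and 2223 genes were called higher and 8858 lower, against 4728 and 4928. The 9 calls kept their direction there, but their folds moved by more than 1.5 times. Atf3 then had a log2 fold change of 0.43 and Jund of 0.73, with Junb at 1.60, Batf at 3.23 and Jdp2 at 4.50, while Fos was at -3.09, Jun at -2.17, Fosl2 at -1.84 and Fosb at -3.11. On the log2(TPM + 1) scale Atf3 was at 0.58 and Jund at 0.86, and Batf3 turned to a called fall of -0.60.

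JQ1 alone, without LPS, raised Jun, Jund and Fosl2 and lowered Fos, Batf, Atf3 and Batf3. Of the 10 members 3 rose, against 21.9% of 13686 genes tested, and 4 fell, against 23.7%, with 45.7% of all genes called. Jun rose 1.99-fold (log2 fold change 0.99, SE 0.072, adjusted p = 1.29e-41), Jund 1.98-fold (log2 fold change 0.98, SE 0.12, adjusted p = 3.80e-14) and Fosl2 1.76-fold (log2 fold change 0.81, SE 0.11, adjusted p = 1.68e-12). The 3 libraries of each of these genes with JQ1 lay above all 3 unstimulated ones. Fos fell to 32.6% of its unstimulated level (log2 fold change -1.62, SE 0.15, adjusted p = 3.13e-24) and Batf to 24.3% (log2 fold change -2.04, SE 0.41, adjusted p = 3.32e-06). The Batf value rested on 39, 8 and 26 reads in the unstimulated libraries and 8, 3 and 6 in the JQ1 libraries. Atf3 (log2 fold change -0.23, SE 0.091, adjusted p = 0.0298) and Batf3 (log2 fold change -1.18, SE 0.49, adjusted p = 0.0376) passed the test narrowly. Junb had -0.15, adjusted p = 0.340, Jdp2 had -0.011, adjusted p = 0.983 and Fosb had 0.65, adjusted p = 0.306 on the same scale. The Atf3 call was lost without unstimulated replicate 2 (adjusted p = 0.179), unstimulated replicate 3 (0.134), JQ1 replicate 1 (0.0561) or JQ1 replicate 2 (0.143), and the Batf3 call without any library of either group except unstimulated replicate 2 (0.0513 to 0.209). Junb was called lower under total-count scaling (log2 fold change -0.33, adjusted p = 0.0152) and on both TPM scales (adjusted p = 0.00653 and 0.00694), and without mouse 3 (-0.25, adjusted p = 0.0254).

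**Figure D2:**
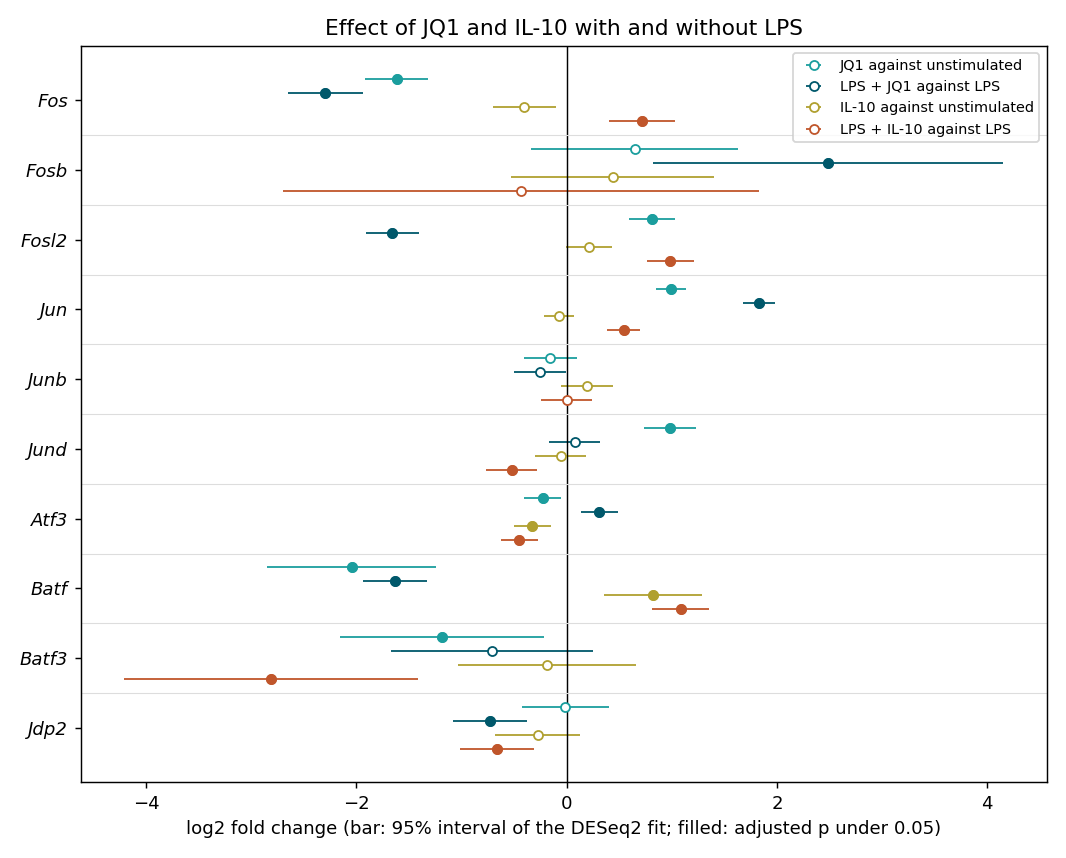
Log2 fold changes of the 10 genes in 4 comparisons, JQ1 and IL-10 each without and with LPS, from the DESeq2 fit, with 95% intervals as bars and filled points where the adjusted p is under 0.05. Fosl2 is higher with JQ1 in cells without LPS (0.81) and lower with JQ1 in LPS cells (-1.66), while Jun is higher with JQ1 in both.

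During LPS stimulation JQ1 pretreatment gave less Fos, Fosl2, Batf and Jdp2 and more Jun, Atf3 and Fosb. Of the 10 members 3 were higher, against 24.4% of 14326 genes tested, and 4 lower, against 32.9%, with 57.3% of all genes called. Fos was at 20.4% of its level with LPS alone (log2 fold change -2.29, SE 0.18, adjusted p = 6.70e-36), Fosl2 at 31.7% (log2 fold change -1.66, SE 0.13, adjusted p = 2.63e-36) and Batf at 32.3% (log2 fold change -1.63, SE 0.15, adjusted p = 6.17e-25). Jdp2 was at 60.3% (log2 fold change -0.73, SE 0.18, adjusted p = 1.12e-04). In contrast, Jun was 3.56-fold higher (log2 fold change 1.83, SE 0.077, adjusted p = 1.23e-121). Atf3 was 1.24-fold higher (log2 fold change 0.31, SE 0.09, adjusted p = 0.00122). Fosb had 1, 2 and 1 reads with LPS and 7, 10 and 7 with LPS + JQ1 (log2 fold change 2.49, SE 0.85, adjusted p = 0.00691). Junb (log2 fold change -0.25, adjusted p = 0.0746, 95% interval -0.50 to -0.006) and Jund (0.076, adjusted p = 0.633, interval -0.17 to 0.32) did not pass, nor did Batf3 (-0.71, adjusted p = 0.212). The Junb value depended on replicate 3, since it was called lower without mouse 3 (log2 fold change -0.43, adjusted p = 8.83e-06), without LPS replicate 3 alone (-0.37, adjusted p = 0.00525) or without LPS + JQ1 replicate 3 alone (-0.32, adjusted p = 0.0430). Its sign also depended on scaling. With all libraries Junb was at 0.125 under total-count scaling and at 0.058 on the log2(TPM + 1) scale, without a call in either. With total-count scaling Jund became a called rise (0.45, adjusted p = 0.000115) and the Jdp2 call was lost (-0.35, adjusted p = 0.0659), the Atf3 call was lost without mouse 3 (adjusted p = 0.0652) and the Fosb call without any 1 mouse (0.0518 to 0.0680).

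IL-10 alone raised Batf and lowered Atf3, so that 2 of 10 members were called, against 2.81% of all 12727 genes tested. Batf rose 1.76-fold (log2 fold change 0.82, SE 0.24, adjusted p = 0.0257), where 1.80% of all genes rose, and Atf3 fell to 79.8% (log2 fold change -0.33, SE 0.091, adjusted p = 0.0174), where 1.01% fell. For the Jun family the 95% intervals of the log2 fold change were -0.22 to 0.067 for Jun, -0.05 to 0.45 for Junb and -0.30 to 0.19 for Jund. Fos (-0.40, adjusted p = 0.174) did not pass, although its 3 libraries with IL-10 lay below the 3 unstimulated ones, and passed when only these 2 groups were fitted (adjusted p = 0.00803). Neither call was stable. The Atf3 call was lost without unstimulated replicate 2 (adjusted p = 0.179) or 3 (0.138) and without IL-10 replicate 1 (0.251) or 3 (0.0568), and the Batf call without the same libraries (0.139, 0.343, 0.117 and 0.0876). With edgeR 0 members were called, where 3 had an unadjusted p under 0.05.

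During LPS stimulation IL-10 pretreatment gave more Batf, Fosl2, Fos and Jun and less Atf3, Jund, Jdp2 and Batf3. Of the 9 members with an adjusted p, 4 were higher, against 8.38% of 11448 genes tested, and 4 lower, against 8.81%, with 17.2% of all genes called. Batf was 2.12-fold higher (log2 fold change 1.08, SE 0.14, adjusted p = 1.82e-13), Fosl2 1.98-fold (log2 fold change 0.99, SE 0.12, adjusted p = 1.02e-15), Fos 1.64-fold (log2 fold change 0.71, SE 0.16, adjusted p = 1.15e-04) and Jun 1.46-fold (log2 fold change 0.54, SE 0.081, adjusted p = 6.47e-10). Among those that were lower, Atf3 was at 73.2% of its level with LPS alone (log2 fold change -0.45, SE 0.09, adjusted p = 1.25e-05), Jund at 69.7% (log2 fold change -0.52, SE 0.12, adjusted p = 3.61e-04) and Jdp2 at 63.2% (log2 fold change -0.66, SE 0.18, adjusted p = 0.00211). Junb did not pass, with a 95% interval of -0.25 to 0.25 on the log2 scale. Batf3 had 8, 25 and 11 reads with LPS and 5, 1 and 0 with LPS + IL-10 (log2 fold change -2.81, SE 0.71, adjusted p = 9.54e-04), and it had no adjusted p without LPS replicate 2 or without any 1 mouse. Fosb had too few reads for an adjusted p. Without mouse 2 the calls of Jund (adjusted p = 0.0655) and Jdp2 (0.134) were lost.

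The pretreatments were also compared directly, LPS + JQ1 against LPS + IL-10. Here 5 of 10 members were higher with JQ1, against 23.8% of 14326 genes tested, and 3 lower, against 31.6%, with 55.3% of all genes called. Fos was 8.04-fold (log2 fold change -3.01, SE 0.18, adjusted p = 2.79e-62), Batf 6.57-fold (log2 fold change -2.72, SE 0.15, adjusted p = 1.78e-70) and Fosl2 6.25-fold lower with JQ1 than with IL-10 (log2 fold change -2.64, SE 0.13, adjusted p = 8.01e-95). In the other direction Jun was 2.44-fold (log2 fold change 1.29, SE 0.075, adjusted p = 4.06e-64), Atf3 1.70-fold (log2 fold change 0.76, SE 0.09, adjusted p = 2.12e-16) and Jund 1.51-fold higher with JQ1 (log2 fold change 0.60, SE 0.12, adjusted p = 4.65e-06). Fosb (adjusted p = 0.00459) and Batf3 (adjusted p = 0.00844) were also higher with JQ1, on the reads given above. Jdp2 did not differ detectably between the pretreatments (log2 fold change -0.067, adjusted p = 0.780, 95% interval -0.42 to 0.28), and Junb had -0.25, adjusted p = 0.0770 (interval -0.50 to -0.0059). Junb was called lower without mouse 3 (-0.43, adjusted p = 7.68e-06), without LPS + JQ1 replicate 3 (adjusted p = 0.0470) or LPS + IL-10 replicate 3 (0.00453), the Batf3 call was lost without LPS + IL-10 replicate 3 (0.138) and the Fosb call without mouse 1 (0.0543).

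**Figure D3:**
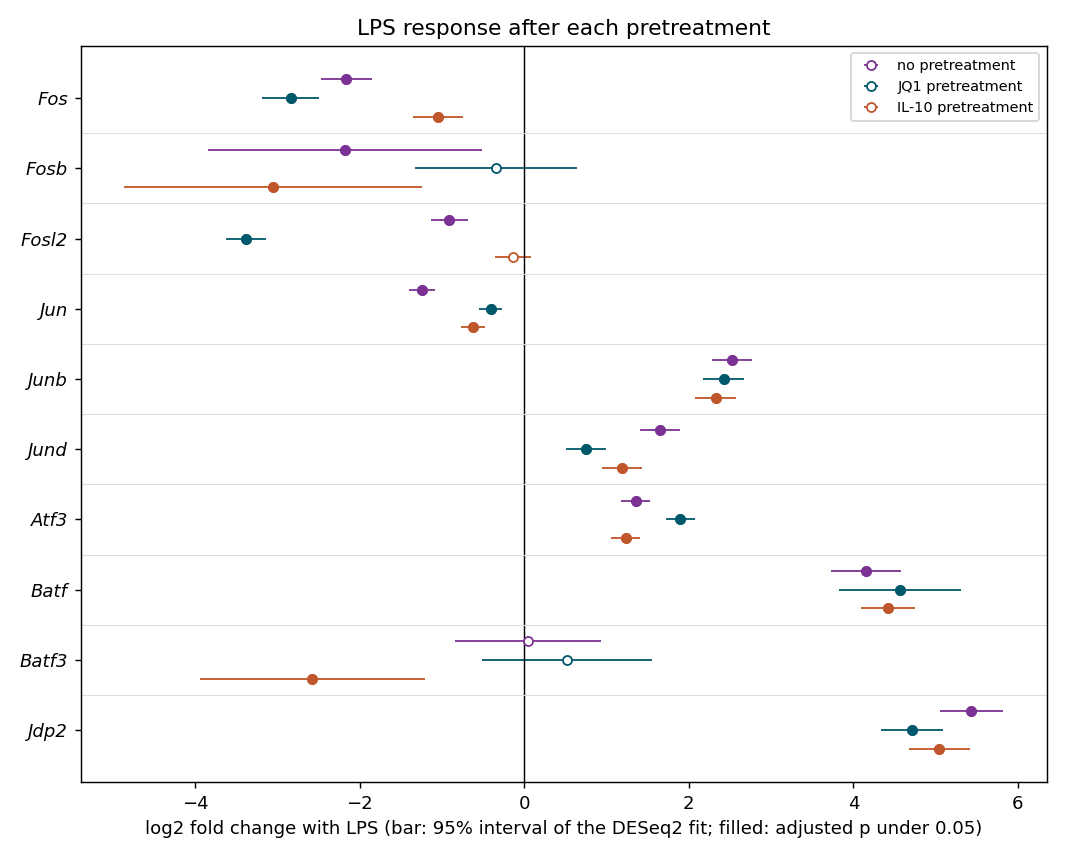
Log2 fold change with LPS for each of the 10 genes after no pretreatment, JQ1 or IL-10, each against the group with the same pretreatment and no LPS, with 95% intervals as bars and filled points where the adjusted p is under 0.05. Jdp2 (4.71 to 5.43), Batf (4.16 to 4.57) and Junb (2.33 to 2.52) rise with LPS in all 3 settings, and the value of Fosl2 ranges from -3.38 after JQ1 to -0.14 after IL-10, which is not called.

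The LPS response was next taken within each pretreatment, where the control was the culture with the same pretreatment and no LPS. After JQ1, LPS raised 5 of 10 members, against 27.6% of 13686 genes tested, and lowered 3, against 31.0%, with 58.6% of all genes called. After IL-10 it raised 5, against 33.2% of 14326 genes, and lowered 4, against 33.8%, with 67.0% of all genes called. Junb, Jund, Atf3, Batf and Jdp2 were the 5 that rose in both settings. Junb rose 5.37-fold after JQ1 (adjusted p = 4.80e-81) and 5.01-fold after IL-10 (adjusted p = 2.25e-75). Batf rose 23.7-fold and 21.5-fold, from a base that was lower after JQ1 (8, 3 and 6 reads) and higher after IL-10 (96, 45 and 50 reads). Fosl2 fell to 9.59% of its JQ1 level with LPS (log2 fold change -3.38, SE 0.13, adjusted p = 2.93e-159), whereas after IL-10 it did not pass the test (log2 fold change -0.14, SE 0.11, adjusted p = 0.264). That last value was called lower without LPS + IL-10 replicate 2 (log2 fold change -0.29, adjusted p = 0.00431) and under total-count scaling (-0.96, adjusted p = 2.95e-16). Fos fell to 14.0% after JQ1 and to 48.4% after IL-10, and Jun to 75.5% and 64.9%. Under total-count scaling the median of all genes after IL-10 was -0.84, and the values for Atf3 (0.40), Jund (0.36), Fos (-1.87) and Jun (-1.46) after IL-10 kept their call at another size.

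Whether the effect of JQ1 differed with and without LPS was tested as an interaction, whose value is the log2 fold change with LPS minus that without. It passed for 6 members, of which 2 were positive, against 17.7% of 12727 genes tested, and 4 negative, against 23.8%, with 41.5% of all genes called. The split of signs depended on scaling. Under total-count scaling 4 members were positive and 2 negative, where 5964 of 13367 genes tested were positive and 1023 negative. With edgeR 3 members were positive and 2 negative, where 2897 of 12251 genes were positive and 2417 negative. Fosl2 had the largest term among those that passed (log2 fold change -2.47, SE 0.17, adjusted p = 1.33e-45), as JQ1 raised it in cells without LPS and lowered it in LPS cells. Jund (log2 fold change -0.91, SE 0.18, adjusted p = 1.59e-06) rose with JQ1 in cells without LPS and had no called change with LPS. Jun (log2 fold change 0.84, SE 0.11, adjusted p = 4.02e-14) and Atf3 (log2 fold change 0.54, SE 0.13, adjusted p = 1.24e-04) had a more positive effect of JQ1 in LPS cells. The negative terms of Fos (log2 fold change -0.68, SE 0.24, adjusted p = 0.0127) and Jdp2 (log2 fold change -0.72, SE 0.28, adjusted p = 0.0243) were lost with edgeR (adjusted p = 0.0563 and 0.0868), under total-count scaling (-0.12, adjusted p = 0.692, and -0.16, adjusted p = 0.633) and with limma on log2(TPM + 1) (-0.019, adjusted p = 0.946, and -0.25, adjusted p = 0.348). Under total-count scaling the Jund term was -0.36 (adjusted p = 0.0464). The Fos term was also lost without mouse 2 (0.0922) or LPS + JQ1 replicate 1 (0.0666), and the Jdp2 term without mouse 2 (0.290), unstimulated replicate 2 (0.0587) or 3 (0.128), LPS replicate 1 (0.0639) or 2 (0.0769), or LPS + JQ1 replicate 2 (0.0611). The same test for IL-10 passed in DESeq2 for 3 of the 8 members with an adjusted p, all positive, against 4.00% of 10808 genes, and for 0 negative, against 3.44%, with 7.44% of all genes called. They were Fos (log2 fold change 1.12, SE 0.22, adjusted p = 2.32e-05), Fosl2 (log2 fold change 0.77, SE 0.16, adjusted p = 6.10e-05) and Jun (log2 fold change 0.62, SE 0.11, adjusted p = 9.44e-07), whose levels were raised by IL-10 in LPS cells and had no called change without LPS. Of the negative terms 2 had an unadjusted p under 0.05, those of Batf3 and Jund. The Jund term (-0.46, adjusted p = 0.0898) was called without LPS replicate 3 (0.0177) or LPS + IL-10 replicate 1 (0.00108), and that of Batf3, which had no adjusted p, was called by edgeR (0.0434).

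The members differed widely in level, which TPM allows to be compared between genes. TPM sets every library to the same total, as total-count scaling does, so that ratios of TPM between groups differ from the DESeq2 folds above. In unstimulated cells Atf3 was highest (363 ± 41.8 TPM, SD, n = 3), followed by Junb (243 ± 35.3 TPM), Fos (151 ± 33.1 TPM), Jund (146 ± 4.35 TPM) and Jun (81.7 ± 2.51 TPM). With LPS Junb came first (809 ± 69.8 TPM), then Atf3 (541 ± 17.0 TPM), Jund (266 ± 15.2 TPM) and Jdp2 (245 ± 33.4 TPM). Fos and Jun were then down to 19.5 ± 1.36 TPM and 20.0 ± 0.809 TPM. In LPS + JQ1 cells the levels of Junb (842 ± 64.5 TPM) and Atf3 (830.0 ± 48.2 TPM) were within 1 SD of each other, Jun was at 88.3 ± 0.898 TPM and Fos at 4.96 ± 0.995 TPM. In LPS + IL-10 cells Batf reached 98.2 ± 11.0 TPM, above Fos (34.8 ± 8.04 TPM) and Jun (31.7 ± 1.88 TPM).

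The summed TPM of the 10 genes was 1067, 1005 and 1013 in the unstimulated libraries, 1973, 2058 and 1833 in the LPS libraries, 2247, 2253 and 2455 in those of LPS + JQ1 and 1915, 1914 and 1718 in those of LPS + IL-10. The sum was 1.90 times as high with LPS as in unstimulated cells (exact two-sided permutation test, p = 0.1) and 1.19 times as high with LPS + JQ1 as with LPS (p = 0.1, same exact test). With 3 libraries in each group 0.1 is the smallest p this test can give, and it did not pair libraries of the same mouse. The sum with LPS + IL-10 was 0.946 of that with LPS (p = 0.4, same exact test), and these groups overlapped. The share of Fos in the sum went from a mean of 14.6% in unstimulated cells to 0.998% with LPS and 0.213% with LPS + JQ1, with no overlap between the groups. Jdp2 went from 0.955% to 12.5% with LPS and 7.92% with LPS + JQ1.

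**Figure D4:**
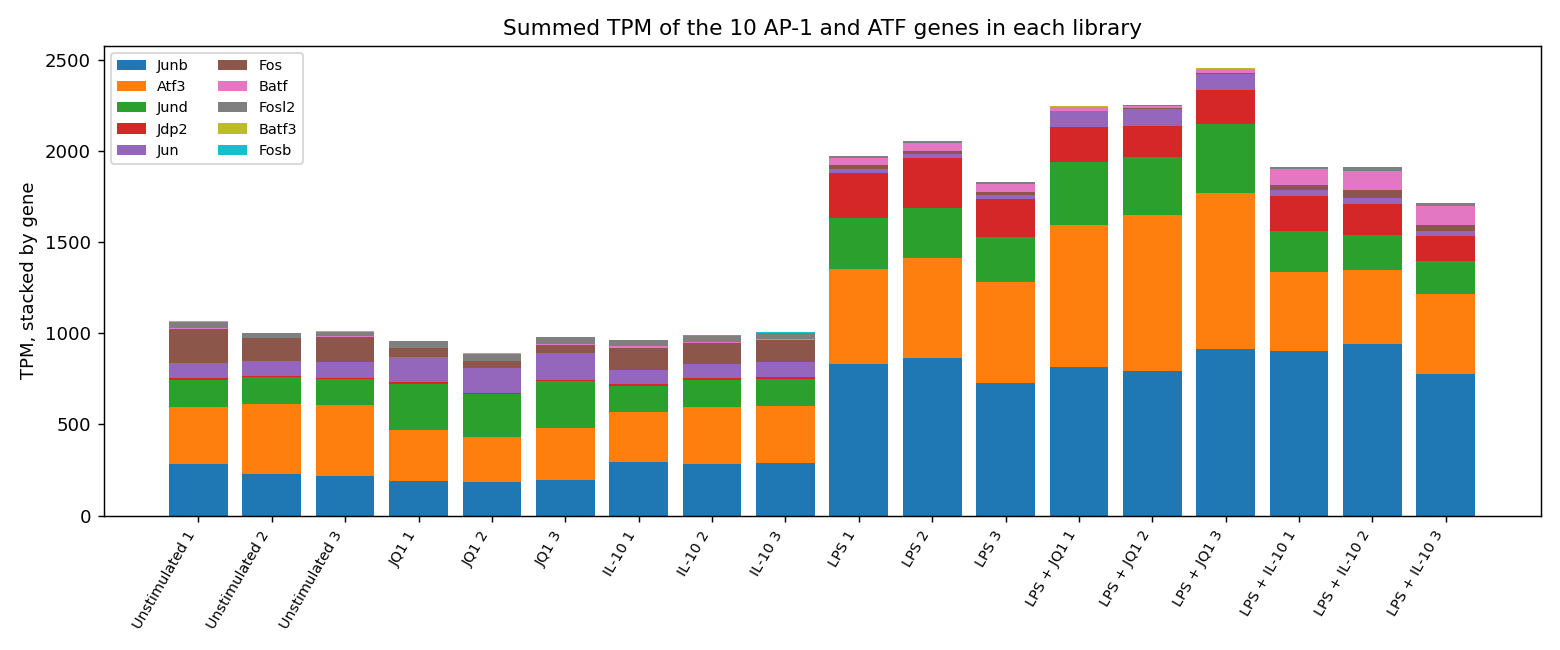
TPM of the 10 genes stacked for each of the 18 libraries, named by group and replicate. The stacks of the LPS libraries reach 1718 to 2455 TPM and those of the libraries without LPS 891 to 1067 TPM, with Junb and Atf3 as the largest blocks in the LPS libraries.

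Within the Jun family, Junb made up a mean of 51.4% ± 3.52 (SD, n = 3) of the summed TPM in unstimulated cells, 32.6% ± 0.575 with JQ1, 73.8% ± 0.676 in LPS cells, 65.9% ± 0.496 in LPS + JQ1 cells and 79.0% ± 1.51 in LPS + IL-10 cells. Jun itself made up 1.83% with LPS and 6.94% with LPS + JQ1. The Fos family held 27.2% of the summed TPM of the Fos and Jun families in unstimulated cells, 2.48% with LPS, 4.54% with LPS + IL-10 and 0.656% with LPS + JQ1. The ratio of Fos to Jun, taken on TPM in each library, had a mean of 1.85 ± 0.438 (SD, n = 3) in unstimulated cells, 0.973 ± 0.0482 in LPS cells and 1.09 ± 0.186 in LPS + IL-10 cells. With JQ1 it was 0.303 ± 0.0124 and with LPS + JQ1 0.0561 ± 0.0108. In the 6 libraries with JQ1 the ratio was at most 0.317, and in every other library at least 0.932. These shares describe RNA, and the proteins were not measured.

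**Figure D5:**
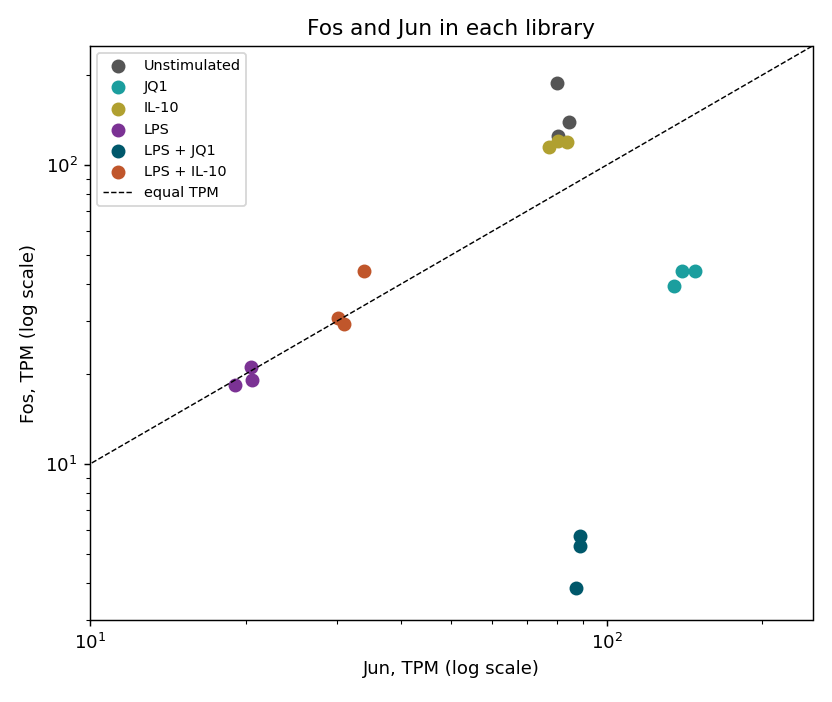
TPM of Fos against TPM of Jun in each of the 18 libraries, both on log axes, coloured by group, with a dashed line where they are equal. The libraries with JQ1 lie far below the line, the LPS and LPS + IL-10 libraries near it and the unstimulated and IL-10 libraries above it.

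Other bZIP genes that pair with or resemble AP-1 also moved in both directions. Of 15 such genes, LPS raised 11, against 31.6% of all genes tested, and lowered 3, against 32.9%, with a median log2 fold change of 0.88 against -0.031 over all genes that averaged 10 or more normalised counts. Batf2 (5.25, adjusted p = 5.10e-169), a relative of Batf, and Maff (3.89, adjusted p = 7.24e-70), a small Maf protein, rose most among those with a mean of at least 100. With LPS + JQ1 against LPS, 5 were higher, against 24.4% of all genes, and 7 lower, against 32.9% (median -0.31 against -0.09). Maff (-3.65, adjusted p = 2.74e-61) and Batf2 (-2.66, adjusted p = 1.70e-65) were lower, and Ddit3 (1.66, adjusted p = 1.65e-28), which encodes the stress factor CHOP, was higher. With LPS + IL-10 against LPS, 2 of 14 tested were higher, against 8.38% of all genes, and 3 lower, against 8.81%, and IL-10 alone raised 1, Nfil3, against 1.80%.

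The kinases and factors that act upstream of AP-1 moved in both directions. Of 22, LPS raised 11, against 31.6% of all genes, and lowered 9, against 32.9% (median 0.15 against -0.031 over all genes). Map3k8, the kinase that links Toll-like receptors to ERK, rose with LPS (2.48, adjusted p = 3.14e-150) and was lower when JQ1 preceded LPS (-1.17, adjusted p = 1.22e-38). Map3k1, which feeds the JNK pathway, fell with LPS (-2.56, adjusted p = 1.17e-227) and was higher with LPS + JQ1 (1.51, adjusted p = 1.73e-74). Mef2d, a MADS-box factor that can bind the Jun promoter, fell with LPS (-2.71, adjusted p = 1.48e-110) and was higher with LPS + JQ1 (1.60, adjusted p = 6.44e-38). Elk3, a ternary complex factor of serum response elements, was lower with LPS + JQ1 (-2.21, adjusted p = 6.86e-39). Of the 22, 7 were higher when JQ1 preceded LPS, against 24.4% of all genes, and 6 lower, against 32.9%, counts close to the background (median 0.095 against -0.09), and 3 were higher with LPS + IL-10, against 8.38%, and 3 lower, against 8.81%.

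Other immediate early genes also moved in both directions. Of 10, LPS raised 6, against 31.6% of all genes, and lowered 3, against 32.9% (median 0.70 against -0.031 over all genes). JQ1 alone raised 6, against 21.9%, and lowered 2, against 23.7% (median 0.66 against 0.015). With LPS + JQ1 against LPS 2 were higher, against 24.4% of all genes, and 4 lower, against 32.9% (median -0.37 against -0.09). Those higher were Ier3 (1.78, adjusted p = 2.39e-49), a survival gene, and Zfp36 (1.11, adjusted p = 3.99e-38), which encodes the mRNA-destabilising protein TTP, and among those lower were Egr2 (-2.05, adjusted p = 1.15e-27) and Dusp1 (-0.93, adjusted p = 2.48e-10), a phosphatase of MAP kinases. With LPS + IL-10 against LPS, 5 of 9 tested were higher, against 8.38%, and 2 lower, against 8.81%.

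Genes known from textbooks as AP-1 targets mostly rose with LPS and were lower when JQ1 had been present. Of 11, LPS raised 8, against 31.6% of all genes tested, and lowered 3, against 32.9% (median 2.22 against -0.031 over all genes). JQ1 alone raised 2, against 21.9%, and lowered 7, against 23.7% (median -1.01 against 0.015). With LPS + JQ1 against LPS 1 was higher, the osteopontin gene Spp1 (0.52, adjusted p = 1.15e-06), against 24.4% of all genes, and 8 were lower, against 32.9% (median -2.01 against -0.09). Mmp13, a collagenase, had a log2 fold change of 9.09, adjusted p = 9.57e-208 with LPS and -2.76, adjusted p = 1.83e-21 with LPS + JQ1 against LPS. Ptgs2, which encodes cyclooxygenase 2, had 11.36, adjusted p = 4.60e-68 and -3.04, adjusted p = 3.41e-06 in the same comparisons. With LPS + IL-10 against LPS, 2 of 10 tested were higher, against 8.38%, and 4 lower, against 8.81% (median -0.46 against -0.018). These genes answer to many other factors, and binding of AP-1 to them was not measured. The comparisons against LPS share the LPS libraries, and those against unstimulated cells share the unstimulated ones.

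The genes whose pattern over the 18 libraries was most like that of a member were looked up by Pearson correlation of log2 levels among 8378 expressed genes, as a description of 6 groups that share mice. For Jdp2 they were Nfkb2 (r = 0.998), Eif6 (0.997) and Nfkbib (0.997), and for Junb Zc3h12a (0.996), Relb (0.995) and Nrp2 (0.995). For Batf they included Ctsc (0.990) and Mmp14 (0.985), and for Atf3 they were Otud1 (0.992), Micall2 (0.988) and Anxa1 (0.984). Fos was nearest to Fermt3 (0.987), Shtn1 (0.984) and Gltscr1l (0.983), and Jun to Arhgef11 (0.987), Tom1l2 (0.986) and Glg1 (0.984). Jund was nearest to Sptan1 (0.986). The nearest gene had a lower r for Fosb (Arrdc2, 0.960), Fosl2 (Pacs1, 0.947) and Batf3 (Shmt2, 0.825). Among the members, Jdp2 and Junb were nearest to each other (r = 0.989), Batf was at 0.922 with Junb, and Atf3 at 0.941 with Jdp2. Fos was at 0.833 with Fosl2 and at -0.846 with Jund.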

How the data were processed

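RNA-seq of Il10-/- BMDMs gave 18 libraries, 3 for each of 6 groups, with group and replicate taken from the titles. The labels describe matched cultures from 3 mice, so replicate numbers were taken to name mice. The authors made stranded libraries depleted of ribosomal RNA, mapped the reads onto mm9 (STAR) and estimated gene levels (RSEM 1.2.31, default settings), per the labels and the methods of the study. The deposited expected counts divide reads between genes they match equally well and ignore strand, so near-identical and overlapping genes are uncertain. The deposited TPM values, the authors' own, scale each gene to its length and each library to the same total, and the deposited FPKM values were not used here. All replicates 1 were sequenced on lane 7 and all replicates 3 on lane 8, while the cultures of replicate 2 used lane 7 if LPS was absent and lane 8 if present.

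Expected counts were rounded and fitted with the DESeq2 1.42.0 Wald test in R 4.3.3, over all genes and all 18 libraries, with no term but the group. A gene was called at an adjusted p (Benjamini-Hochberg) below 0.05. The Wald test is the one named in the methods of the study, whereas the rounding, the shared fit and the interaction terms were choices made here. Log2 fold changes, standard errors and 95% intervals are from this fit. A fit of simulated unstimulated and LPS libraries with 200 changed genes recovered 91% of 2-fold and 100% of 4-fold changes, and 6.37% of its calls were false. That simulation gave all genes the same dispersion and covered neither the shared fit of 6 groups nor the interaction terms. The summed TPM was compared by an exact two-sided permutation test that did not pair libraries of the same mouse. Floors of 3 counts, 0.106 to 0.442 CPM, cover counting error only, because without molecular identifiers reads need not be separate molecules. Alternatives were edgeR 4.0.16 with TMM scaling, total-count size factors, a fit of only the groups compared, a filter of at least 10 counts in at least 3 libraries, lane as a covariate, limma 3.58.1 on log2(TPM + 1) and log2(TPM + 0.1) for genes at 1 TPM or more in at least 3 libraries, a replicate block, and leaving out each mouse and each library. The limma fits had no values for Fosb. Deviations from the group means correlated between libraries of the same mouse by a mean of 0.182 for LPS against unstimulated, 0.571 for LPS + IL-10 against LPS and -0.0971 for LPS + JQ1 against LPS, over 8378 genes. Single pairs ran from -0.226 for LPS + JQ1 replicate 2 and -0.326 for replicate 3, both against LPS, to 0.770. The pairing was taken from the matched design in the labels, and these values do not separate mouse from lane.

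The members, lists and comparisons were chosen with earlier results of these data known. All 10 members are named in every comparison. From each other list the text names up to 2 genes that rose and 2 that fell most for LPS against unstimulated and for LPS + JQ1 against LPS (called, with 100 or more normalised counts on average), and 3 genes most like a member by correlation. Some genes that this rule picks are not reported here. RefSeq promoter windows matched all 10 members by symbol.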

Additional observations from a re-analysis of the deposited data

Results flagged for a closer look

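The effect of JQ1 in cells without LPS and in LPS cells differed by the interaction test of DESeq2 for 6 members. The interaction, on the log2 scale, was -2.47 for Fosl2, -0.91 for Jund, -0.72 for Jdp2, -0.68 for Fos, 0.84 for Jun and 0.54 for Atf3. Fosl2 and Atf3 had called changes in opposite directions. Fosl2 was higher with JQ1 alone and lower with LPS + JQ1, in all 3 mice. Atf3 had a small called fall with JQ1 alone and a small called rise with LPS + JQ1. Both Atf3 calls of DESeq2 were lost without mouse 3 (adjusted p = 0.156 and 0.0652). Jun was higher with JQ1 in both settings, by more in LPS cells. The terms of Fos and Jdp2 were not called with edgeR, under total-count scaling or with limma on TPM.

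The effect of IL-10 without and with LPS differed by the same test for 3 members, by 1.12 for Fos, 0.77 for Fosl2 and 0.62 for Jun.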

How the results depend on the processing

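Of 1800 recomputed values of a member in a comparison, 1694 kept their side of the threshold and, where called, their direction. Of the others 71 lost a call, 31 gained one and 4 gained one in the direction opposite to a main value that was not called. Direction was not compared for values without a call in either fit, and some of these changed sign. With the replicate block, which pairs libraries of the same mouse, all 100 values kept their side of the threshold, and calls kept their direction. An example was Fosl2 with LPS + JQ1 against LPS (log2 fold change -1.66, adjusted p = 5.18e-37). Jdp2 with JQ1 against unstimulated cells, not called in either fit, went from -0.011 to 0.0067. For IL-10 against unstimulated cells, where DESeq2 called 2 members, edgeR called 0 (3 with an unadjusted p under 0.05), limma on log2(TPM + 1) called 1 and limma on log2(TPM + 0.1) called 0, and leaving out mice or libraries gave 0 to 2. For the interaction of LPS and IL-10, where 3 were called, the lane covariate gave 5 and leaving out gave 3 to 5. For LPS + IL-10 against LPS, where 8 were called, leaving out gave 5 to 8. Batf3 with LPS, 0.048 and not called in DESeq2, was called at -0.60 on the log2(TPM + 1) scale. The interaction of LPS and JQ1 for Junb was -0.10 and not called in DESeq2. It was called at 0.45 under total-count size factors, 0.40 with limma on log2(TPM + 1) and 0.41 with limma on log2(TPM + 0.1). The same interaction for Fos, called at -0.68 in DESeq2, was -0.57 with edgeR, -0.12 under total-count size factors and -0.019 with limma on log2(TPM + 1). That for Jdp2, called at -0.72, was -0.61, -0.16 and -0.25 in these fits, and none of these alternatives was called. The summed level of the family with LPS was 1.50 times that of unstimulated cells in CPM, against 1.90 in TPM. The cause of these changes was not tested. Depth limits Fosb and Batf3, which had at most 34 reads in any library. It also limits Batf without LPS, which had 8, 3 and 6 reads in the JQ1 libraries.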
